A study of Homo sapiens with 12 samples.

Results

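The MYC, MAX and MXD network is a small set of transcription factors that share MAX as their partner. Its 9 members were taken as the genes MYC, MYCN, MYCL, MAX, MXD1, MXD3, MXD4, MXI1 and MNT, found by symbol among the 25369 genes of the count data, and all 9 were found and passed the filter on low counts. Their transcripts were followed in 4 stable, inducible cell lines built from U2OS, an osteosarcoma line, carrying the Tet-On system, in which doxycycline switches on a gene placed in the pTRE2-hyg vector. The pTRE line carried the empty vector, the WT line HA-tagged wild-type E2F1, the R109K line HA-tagged E2F1 with the R109K change, lysine for arginine, and the KK line HA-tagged E2F1 with the R111/113K change. Arginines at the positions changed in R109K and KK of E2F1 are sites of methylation, and the comparisons ask how far the network's transcripts follow E2F1 and whether a line unable to take 1 kind of mark differs. All 4 lines, pTRE included, were grown with G418 and hygromycin B and received 1 ug/ml doxycycline for 24 h. Each was sampled as 3 biological replicates, 12 samples in all, and polyadenylated RNA was sequenced. The construct was driven by doxycycline and not by E2F1's own control region, the endogenous E2F1 gene remained in every line, and whether a line was 1 clone was not stated in the sources used here. Differences between lines therefore cannot be told apart from differences between the cells that founded them.

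MYC, MYCN and MYCL pair with MAX, bind the E-box sequence CACGTG and raise transcription of genes for growth, ribosome assembly and metabolism. MXD1, MXD3, MXD4, MXI1 and MNT pair with the same MAX, bind the same sequence and recruit SIN3 and histone deacetylases, which lowers transcription. Levels of MYC proteins are usually high in dividing cells, and MXD proteins, MXD3 apart, are best known from cells that leave the cycle. MYC and MYCN are textbook targets of E2F factors, and E2F and MYC both serve entry into S phase.

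E2F1 transcripts checked the pTRE label against those of the E2F1 lines, and cannot show which form of E2F1 a sample carried. E2F1 stood at 89.2, 82.9 and 101 CPM (read counts relative to the TMM-scaled library size) in the 3 pTRE samples. It stood at 2315, 1650 and 1469 CPM in WT, at 1283, 1260 and 932 CPM in R109K and at 1360, 1478 and 1112 CPM in KK. The log2 fold change of E2F1 against pTRE was 4.31 in WT, 3.67 in R109K and 3.85 in KK. Directly compared, R109K against WT gave -0.65 (adjusted p = 0.0577) and KK against WT -0.46 (adjusted p = 0.574). The counts do not separate the construct from the endogenous gene.

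The samples held between 11500537 and 31040903 reads assigned to genes. The shallowest was WT replicate 2, and 58.7% of its listed reads lay outside annotated genes, against 23.6% to 29.6% in the other 11 samples. R109K replicate 2 and KK replicate 2 also stood apart from their own lines, by chi-square per degree of freedom over genes. R109K replicate 2 differed from its 2 fellow replicates by 30.8 and 21.8, and those 2 from each other by 10.2. KK replicate 2 differed from its fellows by 50.6 and 36.1, and those from each other by 8.85. The pair differed from each other by 18.0. Closeness across lines was not particular to this pair: WT replicate 3 and KK replicate 3 differed by 7.09, the least of all pairs. WT replicate 3 differed from its fellows by 13.8 and 56.6, and KK replicate 3 from its own by 8.85 and 36.1. All 12 samples were kept, and values without WT replicate 2, R109K replicate 2 or KK replicate 2 are also given for several genes. Of 10 osteoblast and mesenchymal markers, COL1A1, SPARC and VIM carried nearly all the signal, and SP7, COL1A2, BGLAP and IBSP stayed under 1 CPM in every sample. Their summed level was 6141 to 7400 CPM in pTRE, 2175 to 2767 CPM in WT, 3298 to 3389 CPM in R109K and 2622 to 3246 CPM in KK. The 5 epithelial markers summed to 744 to 919 CPM in pTRE, and the summed level was 365 to 585 CPM in WT, 521 to 610 CPM in R109K and 468 to 659 CPM in KK, with KRT19 under 1 CPM throughout, and PTPRC, PECAM1 and ALB, markers of blood, vessel and liver cells, were under 1 CPM in every sample. Both sums were lower in the E2F1 lines than in pTRE, and their part in the results below was not tested. In cultures measured in bulk, fewer cells with a transcript and less of it per cell cannot be told apart.

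The promoters below are shown because the study turns on E2F1, whose family binds GC-rich sites that open with a run of T, and because the members themselves act through CACGTG. The 250 bases before the annotated start were read from RefSeq, build GRCh38.p14, on the strand of the gene and 5′ to 3′. Windows that ran to 50 bases past the start were searched on both strands for the E2F letters TTTCCCGC, TTTGGCGC, TTTGCCGC and TTTCGCGC and for the E-box CACGTG, and capitals mark the matches. Promoters of 8 of the 9 members were matched, and that of MYC was not analysed here. MYCN was the member with an E2F match. It held TTTGGCGC at 176 bases before the start and TTTCGCGC on the opposite strand at 172 bases before, and the 2 matches overlap. MXD4 held CACGTG at 238 bases before the start and MNT at 193 bases before, and among the relatives of the network MLX held it at 50 bases before. MXD1 and MXD3, the members whose transcripts passed the test, are shown beside them and held neither in this window. The study looked for E2F motifs over a longer stretch around the start, which was not read here. For scale, 3.31% of all 35116 promoter windows held an E2F match and 7.26% held the E-box.
MYCN, chr2:15940300-15940549, plus strand: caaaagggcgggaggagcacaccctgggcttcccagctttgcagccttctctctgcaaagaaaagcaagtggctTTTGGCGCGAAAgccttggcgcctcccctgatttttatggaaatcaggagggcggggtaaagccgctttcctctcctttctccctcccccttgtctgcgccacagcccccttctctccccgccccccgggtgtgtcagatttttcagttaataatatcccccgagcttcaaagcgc
MXD1, chr2:69914859-69915108, plus strand: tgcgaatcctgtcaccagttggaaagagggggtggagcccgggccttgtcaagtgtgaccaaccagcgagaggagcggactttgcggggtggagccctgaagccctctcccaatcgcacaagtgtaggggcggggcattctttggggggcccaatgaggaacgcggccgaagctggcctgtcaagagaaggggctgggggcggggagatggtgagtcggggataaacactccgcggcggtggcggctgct
MXD3, chr5:177312753-177313002, minus strand: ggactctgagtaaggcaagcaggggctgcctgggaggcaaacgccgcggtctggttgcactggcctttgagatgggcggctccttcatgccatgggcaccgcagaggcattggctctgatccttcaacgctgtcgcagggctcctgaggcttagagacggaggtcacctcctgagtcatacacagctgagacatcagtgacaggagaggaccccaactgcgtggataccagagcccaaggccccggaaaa
MXD4, chr4:2262110-2262359, minus strand: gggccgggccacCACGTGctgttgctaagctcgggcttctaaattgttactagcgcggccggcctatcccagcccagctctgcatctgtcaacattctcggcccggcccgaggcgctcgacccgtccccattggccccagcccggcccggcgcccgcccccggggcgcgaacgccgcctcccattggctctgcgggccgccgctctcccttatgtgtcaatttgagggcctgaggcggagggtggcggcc
MNT, chr17:2401061-2401310, minus strand: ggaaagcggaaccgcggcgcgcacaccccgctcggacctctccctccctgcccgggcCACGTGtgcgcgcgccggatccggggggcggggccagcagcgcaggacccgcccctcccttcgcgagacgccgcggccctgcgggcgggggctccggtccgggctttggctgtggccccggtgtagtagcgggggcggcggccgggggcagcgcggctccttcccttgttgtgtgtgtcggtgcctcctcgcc
MLX, chr17:42566850-42567099, plus strand: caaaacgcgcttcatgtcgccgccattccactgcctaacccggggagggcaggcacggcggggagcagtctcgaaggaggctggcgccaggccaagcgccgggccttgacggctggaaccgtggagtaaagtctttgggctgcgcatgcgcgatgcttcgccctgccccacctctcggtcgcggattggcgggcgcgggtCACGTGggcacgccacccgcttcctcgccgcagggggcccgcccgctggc

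A match is a description of letters and not of a bound site. E2F1's own window held 2 E2F matches, at 33 and 20 bases before the start, and 1 of the 3 annotated starts of MGA held 1, at 65 bases before. MYCL, both entries of MAX and all 3 entries of MXI1 held neither motif.

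Of the 9 members, 1 rose in WT (MXD1), 0 passed in KK and 1 rose in R109K (MXD3) at an adjusted p under 0.01 by edgeR's quasi-likelihood test against pTRE, and 0 fell in any line. Of all 16625 genes tested, 26.2% passed in either direction in WT (14.8% rose and 11.4% fell), 24.4% in KK (13.8% and 10.7%) and 17.3% in R109K (10% and 7.23%). Whether the members differ from all genes in this was not tested. Over the 9 members the median log2 fold change was -0.13 in WT, -0.11 in KK and -0.01 in R109K, where the medians over all genes were 0.00, -0.01 and -0.00. In KK, where none passed, 1 member (MXD1) had an unadjusted p under 0.05, and DESeq2 also called 0. The share of all genes by these 2 rules was not taken. MXD1 in WT was the 1 member that also changed by more than 2-fold, a rule that 11.8% of all genes met in that line (10.9% in KK and 7.19% in R109K). The samples of a line and those of pTRE did not overlap for 4 members in WT (MYCN, MYCL, MXD1 and MXD4), 4 in KK (MYCL, MAX, MXD1 and MNT) and 4 in R109K (MXD3, MXD4, MXI1 and MNT), where 51.5%, 49.4% and 47.2% of all genes did not overlap. The 3 comparisons share the same pTRE samples, so they are not independent of each other.

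**Figure D1:**
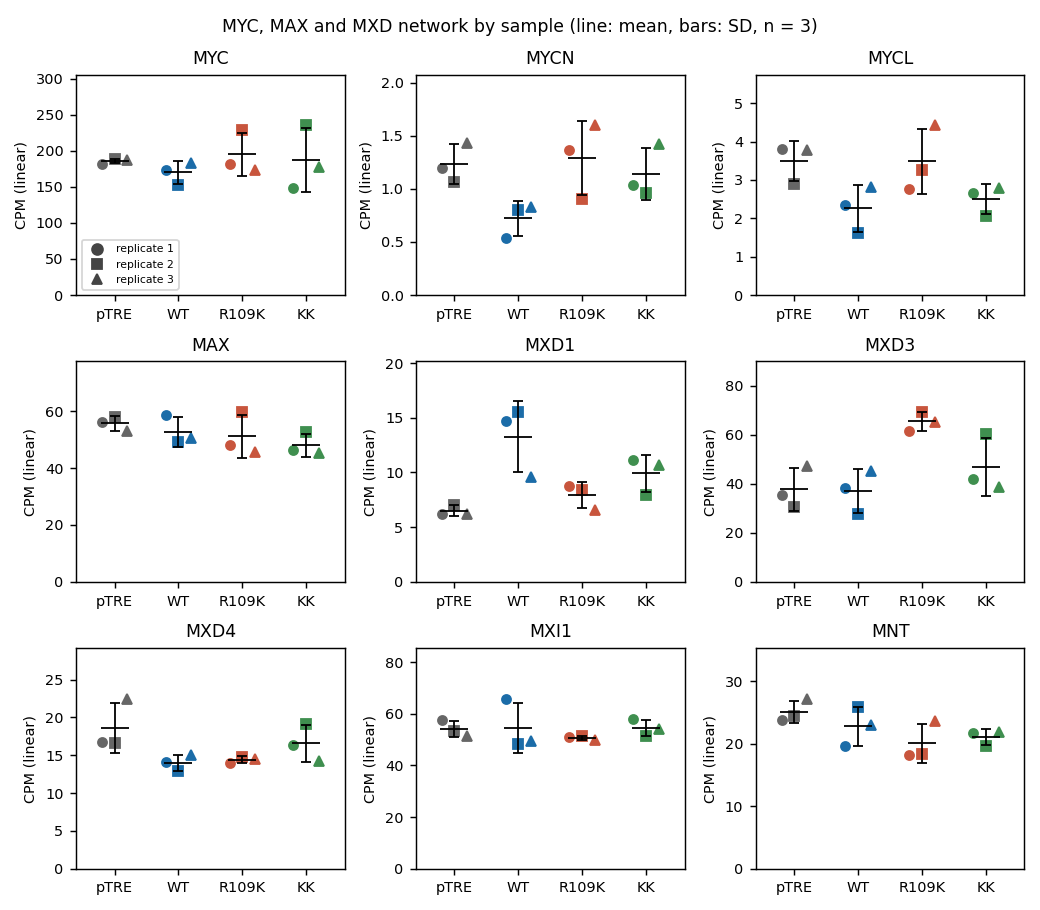
Transcript level of the 9 members in CPM on a linear axis, 1 panel per gene with its own scale, in the pTRE, WT, R109K and KK lines. Points are the 3 replicates of a line and bars the mean ± SD. MXD1 in WT (9.61 to 15.5 CPM) and MXD3 in R109K (61.8 to 69.3 CPM) lie wholly above the pTRE points, and MYC overlaps pTRE in all 3 E2F1 lines.

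MYC, the leading activator of the network, did not pass the test in any line. Its level was 182, 188 and 187 CPM in pTRE, 174, 153 and 183 CPM in WT, 182, 229 and 174 CPM in R109K and 148, 235 and 177 CPM in KK. The pTRE samples lay close together (186 ± 3.14 CPM, SD, n = 3), and the samples of every E2F1 line overlapped them. R109K replicate 2 and KK replicate 2, the pair that stood apart, held the highest levels of the 12. The log2 fold change of MYC against pTRE was -0.13 in WT (95% interval -0.46 to 0.21, adjusted p = 0.536), 0.01 in KK (-0.33 to 0.34, adjusted p = 0.975) and 0.07 in R109K (-0.26 to 0.40, adjusted p = 0.794). As fold changes of MYC, these 95% intervals ran from 0.73-fold to 1.15-fold in WT, 0.80-fold to 1.27-fold in KK and 0.83-fold to 1.32-fold in R109K. They hold for the fit with all 12 samples. Without R109K replicate 2 and KK replicate 2 the log2 fold change was -0.19 in KK and -0.063 in R109K, and without WT replicate 2 it was -0.060 in WT, none of which passed. MYC lies at chromosome 8, 128747680 to 128755197 on the plus strand (GRCh37). PVT1, the long noncoding gene downstream of MYC, gave a log2 fold change of 0.43 in WT (adjusted p = 0.0542), with 47.7, 70.4 and 40.2 CPM in WT beside 38.4, 40.9 and 37.8 in pTRE, and the highest value was WT replicate 2. Without that library PVT1 gave 0.17 in WT (adjusted p = 0.341). CASC11, on the opposite strand beside MYC, had 0 to 13 reads per sample.

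MYCN, best known from neuroblastoma and carrier of the E2F matches shown above, was close to the limit of detection, with 10 to 42 reads per sample. It stood at 1.20, 1.06 and 1.43 CPM in pTRE and at 0.534, 0.803 and 0.831 CPM in WT. All 3 WT samples were below all 3 pTRE samples. A log2 fold change of -0.78 (SE 0.33, 95% interval -1.50 to -0.07) had an adjusted p of 0.0733 and did not pass. In KK it was -0.11 (adjusted p = 0.818) and in R109K 0.06 (adjusted p = 0.912), with samples from 0.908 to 1.60 CPM that overlapped pTRE. MYCNOS, its antisense neighbour, had 0 to 3 reads per sample.

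MYCL, first found amplified in lung cancer, gave 3.80, 2.89 and 3.78 CPM in pTRE, 2.35, 1.61 and 2.82 in WT, and 2.66, 2.06 and 2.80 in KK. Its WT and KK samples all lay below the pTRE samples, and R109K, at 2.76 to 4.42 CPM, overlapped them. Against pTRE its log2 fold change was -0.59 in WT (adjusted p = 0.0732), -0.47 in KK (adjusted p = 0.158) and -0.01 in R109K (adjusted p = 0.987), and none passed. MYCN and MYCL in WT were thus both at an unadjusted p under 0.05 and both short of the adjusted threshold. The lowest MYCL value, that of the shallow WT replicate 2, came from 20 reads. Without that library MYCL gave -0.43 in WT (adjusted p = 0.172) and MYCN -0.85 (adjusted p = 0.0677).

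MAX, the shared partner, did not pass the test in any line. Its samples lay at 52.9 to 58.1 CPM in pTRE. WT samples lay at 49.1 to 58.8 CPM, R109K samples at 45.7 to 59.6 CPM and KK samples at 45.2 to 52.6 CPM. Changes of MAX on the log2 scale were -0.08 in WT (95% interval -0.34 to 0.19), -0.12 in R109K (-0.39 to 0.14). The value in KK was -0.21 (-0.48 to 0.05, adjusted p = 0.192), and there every sample was below every pTRE sample. MAX lies opposite FNTB, a gene at 0.785 to 3.37 CPM.

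MXD1, the founding member of the MXD family, rose in WT. Its level was 6.24, 7.07 and 6.17 CPM in pTRE and 14.7, 15.5 and 9.61 CPM in WT. It was 8.78, 8.36 and 6.55 CPM in R109K and 11.1, 7.97 and 10.7 CPM in KK. WT and KK samples all lay above the pTRE samples, and 1 R109K sample fell among them. In WT the log2 fold change was 1.02 (SE 0.19, 95% interval 0.61 to 1.44), which is 2.03-fold, with an adjusted p of 6.91e-04. It passed in 12 of 12 other fits, at log2 fold changes from 0.91 to 1.20, though not when tested against 1.5-fold, and without the shallow WT replicate 2 it was 0.91 (adjusted p = 0.00192). In KK the log2 fold change was 0.61 (95% interval 0.20 to 1.03, adjusted p = 0.0215), which passed in 2 of 13 alternatives, among them the one without KK replicate 2 (0.74, adjusted p = 0.00908). In R109K it was 0.28 (-0.13 to 0.70, adjusted p = 0.308).

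WT had the highest mean level of E2F1 and of MXD1, and the part of E2F1 level in this order was not tested. Set directly against each other, R109K was below WT by a log2 difference of -0.74 (95% interval -1.15 to -0.33, adjusted p = 0.0478), with every R109K sample under every WT sample. That misses the threshold of 0.01, and it passed in 1 of 13 alternatives, the one without WT replicate 3 (adjusted p = 0.00796). KK against WT gave -0.41 (-0.82 to -0.00, adjusted p = 0.574). MXD1 lies at chromosome 2, 70124820 to 70170077 on the plus strand (GRCh37). SNRNP27, which overlaps it on the same strand, had a log2 fold change of -0.03 in WT (adjusted p = 0.857).

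MXD3, the MXD protein best known from cells in S phase, rose in R109K. It was at 35.6, 30.5 and 47.5 CPM in pTRE and at 61.8, 69.3 and 65.4 CPM in R109K. WT gave 38.2, 27.5 and 45.4 CPM, and KK gave 42.0, 60.3 and 38.6 CPM. R109K stood above all 9 other samples, and WT and KK overlapped pTRE. In R109K the log2 fold change was 0.79 (SE 0.20, 95% interval 0.36 to 1.22), 1.73-fold, with an adjusted p of 0.00777. The call is close to the threshold: it passed in 6 of 13 alternatives. It was lost without pTRE replicate 1 (adjusted p = 0.0390), without pTRE replicate 2 (0.0493) and without R109K replicate 1 (0.0200), replicate 2 (0.0277) or replicate 3 (0.0229), and DESeq2 gave 0.00145. In WT the log2 fold change was -0.02 (-0.45 to 0.40, adjusted p = 0.932) and in KK 0.31 (-0.12 to 0.73, adjusted p = 0.251), or 0.088 without KK replicate 2, its highest KK sample (adjusted p = 0.765). Without pTRE replicate 3, the highest pTRE sample, MXD3 gave 0.50 in KK (adjusted p = 0.0907) and 0.17 in WT (adjusted p = 0.563). In R109K it then gave 0.99 (adjusted p = 0.00511).

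R109K against WT gave 0.81 for MXD3 (95% interval 0.39 to 1.24). edgeR's adjusted p was 0.0384 and DESeq2's was 0.00516, so the call between these lines depends on the tool. R109K against KK gave 0.48 (0.06 to 0.90, adjusted p = 0.319). MXD3 lies at chromosome 5, 176728462 to 176739758 on the minus strand (GRCh37), where RAB24 overlaps it on the same strand and PRELID1 on the opposite strand. RAB24 had a log2 fold change of 0.02 in R109K (adjusted p = 0.948) and PRELID1 0.16 (adjusted p = 0.589).

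**Figure D2:**
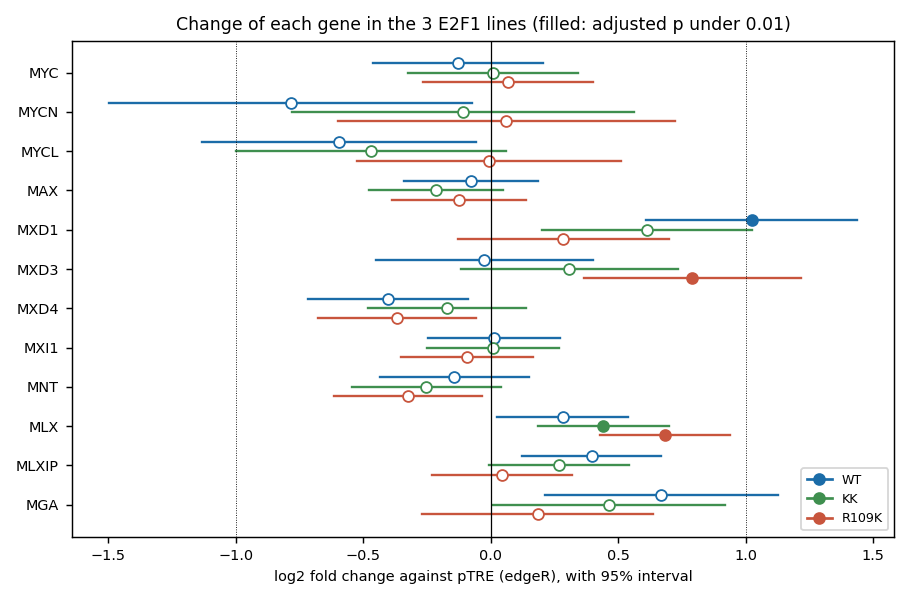
Log2 fold change against pTRE of the 9 members and of MGA, MLX and MLXIP in WT, KK and R109K. Points are edgeR estimates with 95% intervals, filled where the adjusted p is under 0.01, and dotted lines mark 2-fold changes. Among the members, MXD1 in WT (1.02) and MXD3 in R109K (0.79) are filled.

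MXD4, MXI1 and MNT did not pass the test in any line. MXD4, of the same family as MXD1, was at 16.8, 16.6 and 22.4 CPM in pTRE, 14.1, 12.9 and 15.0 in WT, and 13.9, 14.8 and 14.5 in R109K. All WT and R109K samples were below all pTRE samples, of which pTRE replicate 3 was well above the others. The log2 fold change of MXD4 was -0.40 in WT (95% interval -0.72 to -0.09, adjusted p = 0.0395), -0.37 in R109K (-0.68 to -0.06, adjusted p = 0.0730) and -0.17 in KK (-0.48 to 0.14, adjusted p = 0.392). Without pTRE replicate 3 the values for MXD4 were -0.25 in WT (adjusted p = 0.193), -0.21 in R109K (adjusted p = 0.321) and -0.017 in KK (adjusted p = 0.945). MNT, the broadly expressed antagonist of MYC, lay at 23.7 to 27.1 CPM in pTRE, and the samples of WT spanned 19.6 to 25.9 CPM, those of R109K 18.2 to 23.6 CPM and those of KK 19.6 to 21.9 CPM. Its log2 fold change was -0.14 in WT, -0.25 in KK and -0.32 in R109K (95% interval -0.62 to -0.03, adjusted p = 0.0907), with KK and R109K samples all below pTRE. MXI1, once called MXD2, stayed between 48.3 and 65.6 CPM over the 12 samples, and its log2 fold change against pTRE was within -0.09 to 0.01. MXD4 and MNT had mean levels below pTRE in each E2F1 line, and MXI1 in R109K.

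Between the E2F1 lines, 0 of 9 members passed by edgeR in any direct comparison. With R109K against WT, 0.71% of all genes passed, 4 members (MYCN, MYCL, MXD1 and MXD3) had an unadjusted p under 0.05, and DESeq2 called 1, MXD3. With KK against WT, 0.012% of genes passed, 1 member (MXD1) was under 0.05 unadjusted, and DESeq2 called 0. With R109K against KK, 0.132% of genes passed, 1 member (MXD3) was under 0.05 unadjusted, and DESeq2 called 0. These shares are for edgeR at an adjusted p under 0.01. No share of all genes was taken at an unadjusted p under 0.05 or by DESeq2. The member counts by those 2 rules therefore cannot be set against all genes. Samples did not overlap for 3 members in R109K against WT (27.1% of all genes), 1 in KK against WT (9.97%) and 2 in R109K against KK (21%). MYCN, for example, was higher in R109K than in WT by 0.85 on the log2 scale (95% interval 0.14 to 1.55, adjusted p = 0.160) and MYCL by 0.59 (0.05 to 1.12, adjusted p = 0.191).

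Levels of different genes were set side by side per kilobase of exon, with the union of exons as gene length. Order and overlap can differ by the length used, and they were not taken with the longest transcript. The union and the longest transcript were, for example, 6351 and 5580 bases for MXD1 and 6873 and 4228 bases for MXD4. They were 4743 and 2279 bases for MXD3 and 5907 and 3470 bases for MXI1. In pTRE, MYC stood at 30.4 CPM per kb and was the most abundant member. MXI1 (9.16), MAX (8.90) and MXD3 (7.98 CPM per kb) followed, and each overlapped the next in its samples. MNT (2.88) and MXD4 (2.71) overlapped each other, and MXD1 (1.02), MYCL (0.703) and MYCN (0.447 CPM per kb) came last, each separate from its neighbours. In WT, MXD1 at 2.09 CPM per kb stood beside MXD4 at 2.04, and their samples overlapped. In R109K, MXD3 at 13.8 CPM per kb was second after MYC at 31.9 and did not overlap MXI1 at 8.58. In KK, MXD3 at 9.90 overlapped MXI1 at 9.22 CPM per kb. MYC took the first place in all 4 lines.

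The summed level of MYC, MYCN and MYCL was divided by that of MXD1, MXD3, MXD4, MXI1 and MNT, per kilobase, as a measure of the balance of activators and repressors at the RNA level. The ratio was 1.34 ± 0.119 in pTRE, 1.20 ± 0.0702 in WT, 1.18 ± 0.138 in R109K and 1.23 ± 0.214 in KK (SD, n = 3 each). Samples ranged from 0.997 to 1.46 and the lines overlapped. The denominators were 23.7 CPM per kb in pTRE, 23.8 in WT, 28.0 in R109K and 25.5 in KK. MYC itself made up 47.4%, 45.8%, 45.9% and 46.9% of the 9 members' summed level in pTRE, WT, R109K and KK.

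**Figure D3:**
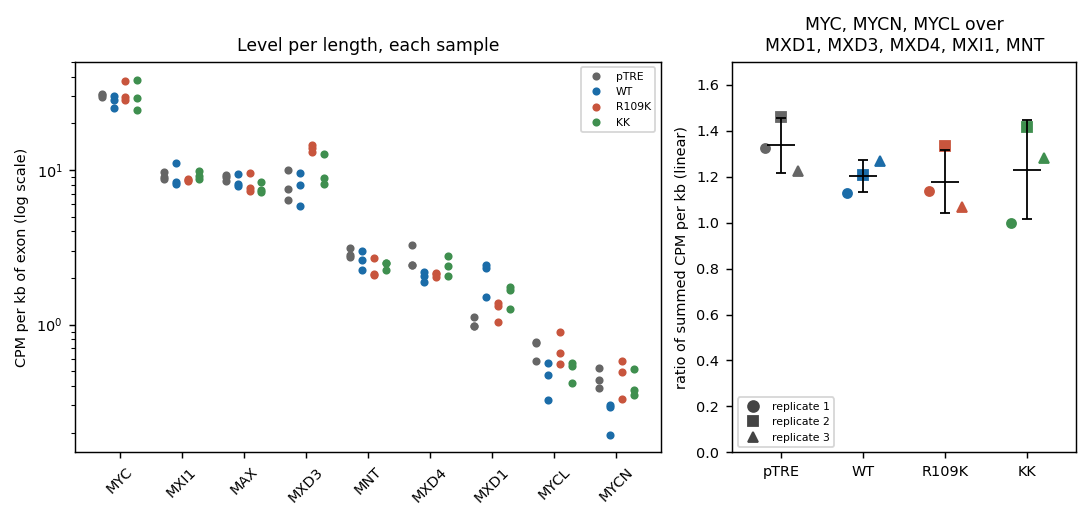
Left, level of each member in CPM per kb of exon on a log axis, by line. Right, ratio of the summed MYC family to the summed MXD and MNT level in each sample. Points are replicates, and bars the mean ± SD. MYC lies highest in every line, and the ratios (0.997 to 1.46) overlap between lines.

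The relatives MGA, MLX, MLXIP and MLXIPL extend the network. MLX is the partner of MLXIP and MLXIPL, the glucose-sensing factors MondoA and ChREBP, and also pairs with some MXD proteins and MNT, whereas MGA pairs with MAX in a repressing Polycomb complex. Of the 3 with enough reads to test, 1 rose in KK and in R109K (MLX both times), and 0 passed in WT, where all 3 had an unadjusted p under 0.05 and DESeq2 called 2. Among all genes 13.8% rose in KK and 10% in R109K, and 26.2% passed in either direction in WT. No share of all genes was taken at an unadjusted p under 0.05 or by DESeq2. MLX was at 36.8, 41.2 and 37.3 CPM in pTRE and at 57.9, 68.9 and 58.5 CPM in R109K. KK gave 52.8, 53.3 and 50.6 CPM and WT 51.1, 39.2 and 49.5 CPM. R109K and KK samples all lay above pTRE, and WT overlapped it. The log2 fold change of MLX was 0.68 in R109K (SE 0.12, adjusted p = 5.50e-04), past the threshold in 13 of 13 alternatives. The test against 1.5-fold was not among these alternatives, and its result for MLX was not read. In KK the log2 fold change of MLX was 0.44 (SE 0.12, adjusted p = 0.00909). The KK call was lost when any 1 of the 6 libraries was left out, with adjusted p from 0.0176 to 0.0396. In WT MLX gave 0.28 (adjusted p = 0.0735), or 0.39 without WT replicate 2 (adjusted p = 0.0154).

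MLX lies at chromosome 17, 40719090 to 40725257 on the plus strand (GRCh37), opposite and overlapping PSMC3IP, a factor of meiotic recombination. PSMC3IP rose in all 3 lines, with log2 fold changes of 0.45 in WT (adjusted p = 0.00784), 0.60 in KK (0.00108) and 0.65 in R109K (9.01e-04). The library kit kept strand, but the strand setting used in counting is not given in the sources used here, and the part of PSMC3IP reads in the MLX values was not tested. MGA was at 96.7, 121 and 86.6 CPM in pTRE and 141, 202 and 142 CPM in WT, a log2 fold change of 0.67 (adjusted p = 0.0211, by DESeq2 0.00778). Without WT replicate 2, its highest sample, the value for MGA was 0.48 (adjusted p = 0.0806). In KK it was 0.46 (adjusted p = 0.102). In a fit without R109K replicate 2 and KK replicate 2, MGA passed in WT (0.67, adjusted p = 0.00427) and in KK (0.67, adjusted p = 0.00928). Neither library is in the comparison of WT with pTRE, whose value stayed at 0.67 while its SE went from 0.21 to 0.16. Without KK replicate 2 alone MGA did not pass in KK (0.66, adjusted p = 0.0169). Without pTRE replicate 3 it gave 0.56 in WT (adjusted p = 0.0970) and 0.36 in KK (adjusted p = 0.296), and neither passed. MLXIP gave 0.40 in WT (adjusted p = 0.0233, by DESeq2 0.00784) and 0.23 without WT replicate 2 (adjusted p = 0.109). MLXIPL had 2 to 20 reads per sample and was not tested.

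The 20 cofactor genes cover the acetyltransferase complexes that MYC recruits and the SIN3 and NCOR complexes that MXD proteins recruit. They also hold other partners of MYC outside these complexes, SMARCB1 among them. Of the 20, 1 rose and 1 fell in WT, and 0 passed in KK or R109K by edgeR. Among all genes 26.2%, 24.4% and 17.3% passed in WT, KK and R109K. SIN3A, the scaffold bound by MXD proteins, rose by 0.49 on the log2 scale (adjusted p = 0.00804), and SMARCB1, a SWI/SNF subunit that binds MYC, fell by 0.59 (adjusted p = 0.00619). An unadjusted p under 0.05 was met by 8 of the 20 in WT, 4 in KK and 3 in R109K, and DESeq2 called 1 in KK and 0 in R109K. No share of all genes was taken by these 2 rules. At an unadjusted p under 0.05 it cannot be below the edgeR shares above, since every gene that passed also met it. In WT both calls were lost without any 1 pTRE replicate, WT replicate 1 or WT replicate 2, and in KK 1 gene passed without pTRE replicate 1. Over the 20 genes the median log2 fold change was -0.05 (WT), 0.08 (KK) and 0.13 (R109K).

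Of 18 genes that govern the stability of MYC protein, 3 rose and 1 fell in WT, 4 rose and 1 fell in KK, and 5 rose and 0 fell in R109K. Beside these counts, 14.8% of all genes rose and 11.4% fell in WT, 13.8% and 10.7% in KK, and 10% and 7.23% in R109K. Over the 18 genes the median log2 fold change was 0.20 in WT, 0.14 in KK and 0.12 in R109K. SKP2, the F-box protein that ubiquitinates MYC and is also a well known E2F target, rose in every line, by 1.07 in WT (adjusted p = 6.62e-06), 1.19 in KK (2.50e-06) and 1.25 in R109K (2.89e-06). PPP2R5A, the phosphatase subunit that acts on MYC before its degradation, rose by 0.96, 0.90 and 0.67 in the same order. AURKA, the kinase that shields MYCN from FBXW7, rose by 0.45, 0.58 and 0.47. STUB1, a chaperone-linked ubiquitin ligase, fell by 0.79 in WT (adjusted p = 0.00574) and had values of -0.52 in KK and -0.39 in R109K that did not pass. The number called was 2 in WT without pTRE replicate 2, pTRE replicate 3 or WT replicate 1. In KK it was 2 without pTRE replicate 2 and 3 without pTRE replicate 3 or KK replicate 2, and in R109K 3 without pTRE replicate 1 or 2 or R109K replicate 1 or 2. PLK1 and USP22 were named after their values were seen. PLK1, a mitotic kinase, rose by 0.71 in R109K, and USP22, a deubiquitinase, fell by 0.49 in KK.

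Of 32 genes that are textbook targets of MYC, in ribosome assembly, nucleotide and polyamine synthesis and metabolism, 0 rose and 1 fell in WT, 2 rose and 1 fell in KK, and 2 rose and 0 fell in R109K. All genes rose at 14.8% and fell at 11.4% in WT, at 13.8% and 10.7% in KK and at 10% and 7.23% in R109K. NOLC1, a nucleolar protein, fell by 0.47 in WT (adjusted p = 0.00606) and by 0.49 in KK (adjusted p = 0.00467). PA2G4 and SHMT2, named after their values were seen, rose by 0.61 and 0.62 in KK and by 0.57 and 0.63 in R109K. The median log2 fold change over the 32 was -0.12 in WT, -0.04 in KK and 0.03 in R109K, beside medians near 0.00 for all genes. ODC1, LDHA and TERT were also named after their values were seen. ODC1, of polyamine synthesis, gave 0.51, 0.57 and 0.53 in WT, KK and R109K and LDHA, of glycolysis, -0.51, -0.52 and -0.13, and neither passed. TERT, the telomerase subunit, gave 1.66 in WT (adjusted p = 0.0894), -0.11 in KK (adjusted p = 0.936) and 1.61 in R109K (adjusted p = 0.111), at a mean under 1 CPM in every line. Sample by sample, the targets' median difference from the pTRE mean was lowest in WT replicate 2 (-0.33, with 9 of 32 genes above that mean) and highest in R109K replicate 2 (0.23, with 22 of 32 above). In KK replicate 2 it was 0.07 and in the other 9 samples -0.12 to 0.05. The count called moved with single libraries. In WT it was 3 without WT replicate 2, 2 without WT replicate 3 and 0 without WT replicate 1 or any 1 pTRE replicate. In KK it was 0 without pTRE replicate 1 or KK replicate 2, and 1 without pTRE replicate 2, pTRE replicate 3 or KK replicate 3. In R109K it was 0 without pTRE replicate 1 or 2 or R109K replicate 1 or 2, and 1 without pTRE replicate 3 or R109K replicate 3.

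**Figure D4:**
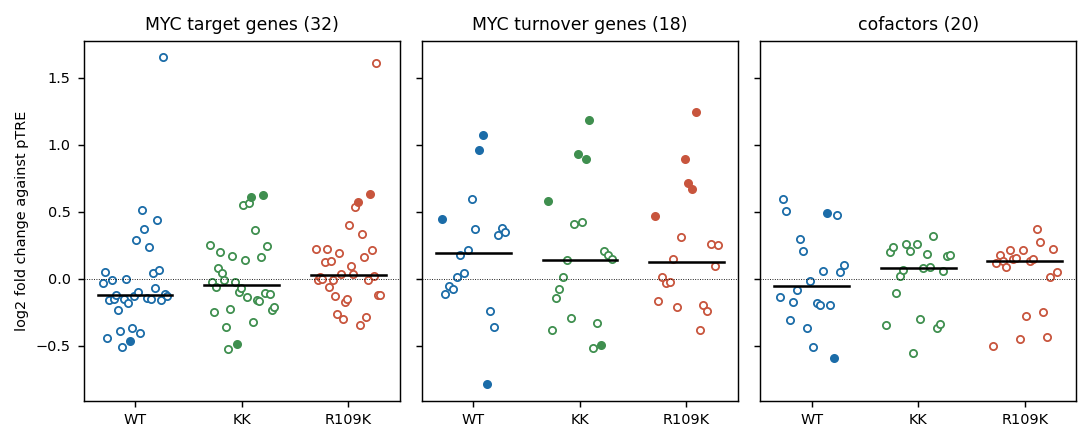
Log2 fold change against pTRE of each tested gene among the cofactors (20), the MYC turnover genes (18) and the MYC target genes (32) in WT, KK and R109K. Points are genes, filled where the adjusted p is under 0.01, and lines are medians. The target medians lie at -0.12, -0.04 and 0.03, and SKP2 is the filled turnover gene above 1 in all 3 lines.

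As a description, the genes whose log2 CPM followed a member most closely over the 12 samples were sought among the 12187 tested genes whose counts averaged 100 or more. For MYC these were LYAR (Pearson r = 0.931), COTL1 (0.928) and MRTO4 (0.923). For MXD1 they were CA13 (0.965), DCLK2 (0.963) and WDR47 (0.961), and for MXD4 CSNK1G2 (0.984), FTSJ1 (0.925) and CORO1B (0.924). The 12 points share 4 lines and their library depths, and they include the 3 libraries that stand apart.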

How the data were processed

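Reads were trimmed with Trim Galore 0.4.3 and aligned to hg19 with STAR 2.5.1, and the submitters' processing notes also name DESeq2 1.16.1. The authors deposited whole-number read counts per gene symbol, 1 set per sample, with 5 summary lines. The counter's settings, strand setting and annotation version are not given in the sources used here. The summary lines were kept out of library sizes and tests (34.3% to 68.8% of the listed reads).

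The quasi-likelihood test of edgeR 4.0.16 (R 4.3.3) was run on the counts. filterByExpr kept 16625 genes, TMM scaled the libraries, and all 12 samples entered 1 model with a mean for each line. Adjusted p-values are Benjamini-Hochberg values over all genes, and a gene passed at an adjusted p under 0.01, the study's threshold, which also asks for over 2-fold. Intervals are at 95% and cover the spread between these samples. CPM per kb divides by the union of exons (GENCODE lifted to GRCh37). DESeq2 1.42.0, other filters, RLE scaling, a replicate block, 6-sample fits, a test against 1.5-fold, and leaving out each library were alternatives, as was leaving out R109K replicate 2 and KK replicate 2 together, chosen after seeing the data. The steps were tested on simulated data.

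All members and the MGA and MLX relatives are named, with up to 4 genes of each other list by smallest adjusted p in WT among those that passed there, and for MYC, MXD1 and MXD4 the 3 most correlated genes. Neighbouring and marker genes are named by position or as markers, and other genes outside this rule are said to be so. The members and lists were chosen with earlier results of these data known, and the lists were written from general knowledge. Values of 1 gene counted in a list are not reported here.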

Additional observations from a re-analysis of the deposited data

Results flagged for a closer look

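In 2 libraries the share of listed reads outside annotated genes was above the highest pTRE sample (28.3%). It was 58.7% in WT replicate 2 and 29.6% in KK replicate 3. Of the members, MXD1 kept its rise in WT without WT replicate 2, where it was 0.91 on the log2 scale (edgeR adjusted p = 0.00192). No level of a member was tested for a sample far from its group, since every group held 3 samples.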

How the results depend on the processing

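MXD1 in WT and MLX in R109K passed in each of the other fits counted for them, which leave out the test against 1.5-fold. Results against 1.5-fold were read for the members only, and there MXD1 did not pass. The 75 results counted here cover members, relatives and, between the E2F1 lines, E2F1 itself. Their 963 alternative values gave 895 of the same direction and side of the threshold, 16 weaker, 7 stronger and 45 of opposite sign. No result that changed sign had passed the test. For each setting the cause of a change was not tested. The share of all genes called under each setting was not taken, so the counts below show only how the calls moved. The count of members called in WT (1) was 0 when tested against 1.5-fold and 2 at an adjusted p under 0.05. In KK (0) it was 1 in the 6-sample fit, 1 at 0.05 and 0 to 1 leaving out each replicate. In R109K (1) it was 0 with the replicate block, 0 against 1.5-fold, 0 without R109K replicate 2 and KK replicate 2, and 0 to 1 leaving out each replicate. For R109K against WT (0) it was 1 by DESeq2, 2 at 0.05 and 0 to 1 leaving out each replicate. Of the relatives, DESeq2 called 2 in WT (0 by edgeR), and in KK (1) the replicate block called 0 and leaving out each replicate 0. Of the cofactors in WT (2), the block called 0 and leaving out each replicate 0 to 3, and in KK (0) DESeq2 called 1 and leaving out each replicate 0 to 1. Turnover genes called numbered 7 by DESeq2 in WT (4 by edgeR) and 2 to 5 leaving out each replicate, 8 by DESeq2 in KK (5) and 2 to 4, and 3 to 4 in R109K (5). MYC targets numbered 4 by DESeq2 in WT (1) and 0 to 3 leaving out each replicate, 6 by DESeq2 in KK (3) and 0 to 2, and in R109K (2) 1 with RLE, 1 with the block and 0 to 1. With the longest transcript as gene length the MYC to MXD ratio was 1.21 in pTRE, 1.10 in WT and 1.03 in R109K.

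Whether replicate numbers pair samples of different lines cannot be told from these values. Deviations of same-numbered samples correlated from -0.295 to 0.470 (18 pairs, mean 0.0436, 5 over 0.1). Those of other pairs ran from -0.383 to 0.314 (36 pairs, mean -0.0235, 9 over 0.1). By chi-square per degree of freedom, most E2F1-line samples were closest, outside their line, to one of the same number. These pairs were WT with KK replicate 1 (9.02), R109K with KK replicate 2 (18.0) and WT with KK replicate 3 (7.09). R109K replicate 3 was closest to WT replicate 3 (12.9). The exceptions were R109K replicate 1, closest to WT replicate 3 (13.6), and WT replicate 2, closest to KK replicate 3 (49.2). With the replicate block MXD3 in R109K had an adjusted p of 0.0150. Among values that changed sign, MYC in KK against pTRE was -0.0083 with the block and -0.19 without R109K replicate 2 and KK replicate 2. Without these libraries MYC was -0.063 in R109K against pTRE and -0.061 in KK against WT, and MYCL was 0.034 in R109K against pTRE. MXI1 in WT against pTRE was -0.0030 with no filter, and MXI1 in KK against WT was 0.0039 by DESeq2, 0.00033 with RLE, 0.0077 with no filter, 0.0058 with the block, 0.0017 in the 6-sample fit and 0.037 without the 2 libraries. Leaving out each replicate gave these ranges where the sign changed. For MYC the log2 fold change was -0.19 to 0.15 in KK against pTRE, -0.063 to 0.15 in R109K against pTRE, -0.061 to 0.29 in KK against WT and -0.087 to 0.26 in R109K against KK. For MYCN the log2 fold change was -0.30 to 0.013 in KK against pTRE, -0.11 to 0.26 in R109K against pTRE and -0.0028 to 0.37 in R109K against KK. For MYCL the log2 fold change was -0.21 to 0.13 in R109K against pTRE and -0.035 to 0.32 in KK against WT. For MAX the log2 fold change was -0.17 to 0.041 in R109K against WT and -0.034 to 0.17 in R109K against KK. For MXD3 the log2 fold change was -0.21 to 0.17 in WT against pTRE. For MXD4 the log2 fold change was -0.020 to 0.095 in R109K against WT. For MXI1 the log2 fold change was -0.16 to 0.088 in WT against pTRE, -0.037 to 0.055 in KK against pTRE, -0.19 to 0.055 in R109K against WT and -0.080 to 0.16 in KK against WT. For MLXIP the log2 fold change was -0.037 to 0.095 in R109K against pTRE and -0.20 to 0.038 in KK against WT. At 10 to 42 reads per sample MYCN had the widest intervals of the members.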
